A study of Mus musculus with 8 samples.

Results

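Whole mouse embryos labelled Meis1 knockout (KO) were compared with wild-type (WT) littermates by messenger RNA sequencing at embryonic day 11.5 on the C57BL/6 strain. The comparison holds 6 of the 8 libraries of the series, 3 from WT and 3 from KO embryos, taken by their genotype labels. The other 2 libraries are a Prep1 hypomorph and its WT control. Reads were single-end and 68 bases long. Both groups share strain, stage and tissue, and no treatment is named. The part of Meis1 that the KO allele lacks, the number of embryos behind a library and the substrain are not stated in the sources used here. Nothing says that the libraries came from separate litters, so the p-values measure only the spread between these libraries.

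The deposited values are group means of size-factor-normalised counts, and the whole counts of each library were worked back from them. Within a group the libraries carry the letters a to c, and which labelled sample each came from is not known. They held 4299654, 4547650 and 6249571 counts across WT a to c, and 4233891, 4706474 and 4810070 across KO a to c. All values below are normalised counts (count divided by the library's size factor), and each log2 ratio is log2 of KO mean plus 1 over WT mean plus 1.

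Meis1 is a homeodomain transcription factor of the TALE class that binds DNA with Pbx proteins and, in some settings, with Hox proteins. In mice its loss is known to stop the formation of megakaryocytes, the cells that shed platelets, and to cause bleeding, a small fetal liver and small eyes with poorly formed lenses. It is also a regulator of blood stem cells and of the heart, limb and hindbrain. Embryos without it die before birth.

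The upstream sequences of 4 genes on which the results below turn are shown first: Ppbp and Pf4, neighbouring platelet chemokine genes that read lower in KO, and Bnip3 and Ciart, which read higher. Ciart is the current symbol of the gene that the deposited table lists as Gm129, by RefSeq's synonyms. Each is the 150 bases before the annotated transcript start in RefSeq (GRCm38.p6), read 5′ to 3′ on the gene's strand, and each gene had 1 entry in the table of promoters. Capitals mark matches on either strand to GGAAGT (the core bound by Ets factors) or TATAAA in the first pair, and to CACGTG (the E-box bound by clock factors and other basic helix-loop-helix proteins) in the second.
Ppbp (chr5:90768368-90768517, plus strand): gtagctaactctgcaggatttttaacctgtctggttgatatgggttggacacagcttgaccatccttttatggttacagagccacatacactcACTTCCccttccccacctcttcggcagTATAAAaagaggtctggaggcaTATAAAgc
Pf4 (chr5:90772285-90772434, plus strand): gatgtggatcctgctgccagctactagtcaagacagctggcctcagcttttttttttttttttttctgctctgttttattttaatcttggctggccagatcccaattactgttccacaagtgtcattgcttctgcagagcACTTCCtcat
Bnip3 (chr7:138909507-138909656, minus strand): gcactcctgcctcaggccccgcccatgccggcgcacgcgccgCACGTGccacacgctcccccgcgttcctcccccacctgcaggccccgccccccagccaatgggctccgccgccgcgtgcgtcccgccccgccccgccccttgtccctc
Ciart (chr3:95882229-95882378, minus strand): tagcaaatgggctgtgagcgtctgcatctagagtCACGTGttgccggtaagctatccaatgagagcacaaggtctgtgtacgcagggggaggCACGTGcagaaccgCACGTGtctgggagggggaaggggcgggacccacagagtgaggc

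Ppbp and Pf4 each held 1 match to GGAAGT, a motif with at least 1 match in 13.9% of the 27025 genes in windows of this length, and Ppbp held 2 matches to TATAAA (8.08% of genes hold at least 1). Ciart held 3 matches to CACGTG and Bnip3 held 1. At least 1 match was present in 4.3% of genes and at least 3 in 13 of the 27025. None of the 4 windows held TGACAG, a motif bound by Meis proteins that 9.67% of genes hold in this window. CACGTG is its own reverse complement and overlaps no other motif searched here. These matches describe letters in a window and are not shown to be bound.

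Some libraries stood apart. KO a had 121 genes at least 2-fold above each of the other 5 libraries and 87 at least as far below. The other libraries had 3 to 22 above and 14 to 85 below. WT b and KO b also differed together from the other 4 libraries. They shared 15 genes at least 4-fold above the others and 20 as far below, whereas the 8 other WT and KO pairs shared 0 or 1. Mmrn1, a platelet and endothelial granule gene, read 46.8 in WT b and 91.9 in KO b, and 0 in the other 4. Rps18 and Rps2, ribosomal protein genes, read 2 to 6.1 and 54.9 to 68.2 in WT b and KO b, against 151 to 236 and 1111 to 1691 elsewhere. For many lists the median is therefore also given without KO a or from libraries a and c alone. What sets these libraries apart was not tested. The whole embryo label was met by genes of many tissues, such as Myh7 of heart (1094 to 1790), Acta1 of muscle (120 to 177) and Slc4a1 of red cells (1205 to 3551), in all 6 libraries.

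Under edgeR's quasi-likelihood test, adjusted by the method of Benjamini and Hochberg, 0 of 14437 genes passed a false discovery rate of 0.05 (0%). At an unadjusted p under 0.05 there were 153 genes higher in KO (1.06%) and 72 lower (0.499%). Without WT a the split was 222 higher and 219 lower. DESeq2 called 1 gene, Ppbp, and limma-voom called 0. The groups were called separated where all 3 KO values lay on 1 side of all 3 WT values. KO lay above WT in 434 genes (3.01%) and below in 386 genes (2.67%). Counts of separated list members below are to be read beside these shares. Over the 14652 genes with a mean of at least 10 in the higher group, the median log2 ratio was 0.00, with 50.2% above 0. Ratios passed 1 in 72 of these genes and lay under -1 in 44. With edgeR's quasi-likelihood test the adjusted p was 0.9999 for each gene named below by rule other than Ppbp (0.3805), so the values that follow describe these 6 libraries. With 3 libraries against 3, an exact permutation test of 1 gene could not go below 0.10.

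Meis1 itself (chromosome 11, 18780433 to 18918961 in mm9) was lower in KO but not lost. It read 439, 414 and 529 across WT a to c, and 407, 322 and 335 across KO a to c, a log2 ratio of -0.38 (edgeR quasi-likelihood SE 0.16, unadjusted p = 0.0351). The groups did not overlap, by a margin of 7 between KO a and WT b. Since counts cover the whole gene, they do not check the labels. Meis2 (chromosome 2, 115688800 to 115891575), its paralogue, read 1087, 1026 and 932 in WT and 1502, 1344 and 1155 in KO. Its log2 ratio was 0.39 (edgeR quasi-likelihood SE 0.14, unadjusted p = 0.0198), with every KO library above every WT library. Of 11 TALE genes and partners, 9 were above 0, with a median of 0.09 (0.15 without KO a, 0.06 in libraries a and c). In each direction 2 of them were separated, where 3.01% of all genes were higher and 2.67% lower. The separated genes besides Meis1 and Meis2 were these. Pbx3, a partner in DNA binding, read 403 to 456 in WT and 458 to 495 in KO. Pknox1, the Prep1 gene, read 128 to 148 in WT and 115 to 121 in KO.

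Among platelet granule genes, Ppbp was the 1 separated member of 7 tested, where 2.67% of all genes were lower in every KO library. Ppbp (chromosome 5, 91197544 to 91199086 in mm9) had 16, 43 and 73 raw counts across WT a to c and 0, 2 and 1 across KO a to c. Its log2 ratio, with 1 added to each mean, was -4.32. Summed counts of 132 against 3, scaled for library size and with nothing added, gave -5.32. The exact 95% counting interval of that second value was -7.61 to -3.74. The interval covers counting error only. In edgeR the quasi-likelihood test gave Ppbp an unadjusted p of 2.64e-05 and Pf4 one of 0.00345. Pf4, listed next to it (91201461 to 91202407), read 23.6, 67.1 and 68.5 in WT and 24.1, 9.98 and 5.85 in KO. WT a and KO a were level, while KO b and KO c lay below every WT library. Pf4 had a log2 ratio of -1.92, which was -2.60 without KO a and -1.56 in libraries a and c alone. The other granule genes with a mean of at least 10 did not share a fall of this size. Vwf, the clotting carrier that endothelium also makes, read 103, 139 and 116 in WT and 171, 119 and 114 in KO. Srgn, the proteoglycan that holds granule cargo, read 5.62 to 19.6 in WT and 6.99 to 17.2 in KO. The 8 granule genes measured at this level had 3 members above 0 and a median of -0.04. Mmrn1, read only in WT b and KO b, was 1 of those 3. The median was -0.16 without KO a and 0.04 in libraries a and c. The 3 granule genes under a mean of 10 all had ratios below 0.

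**Figure D1:**
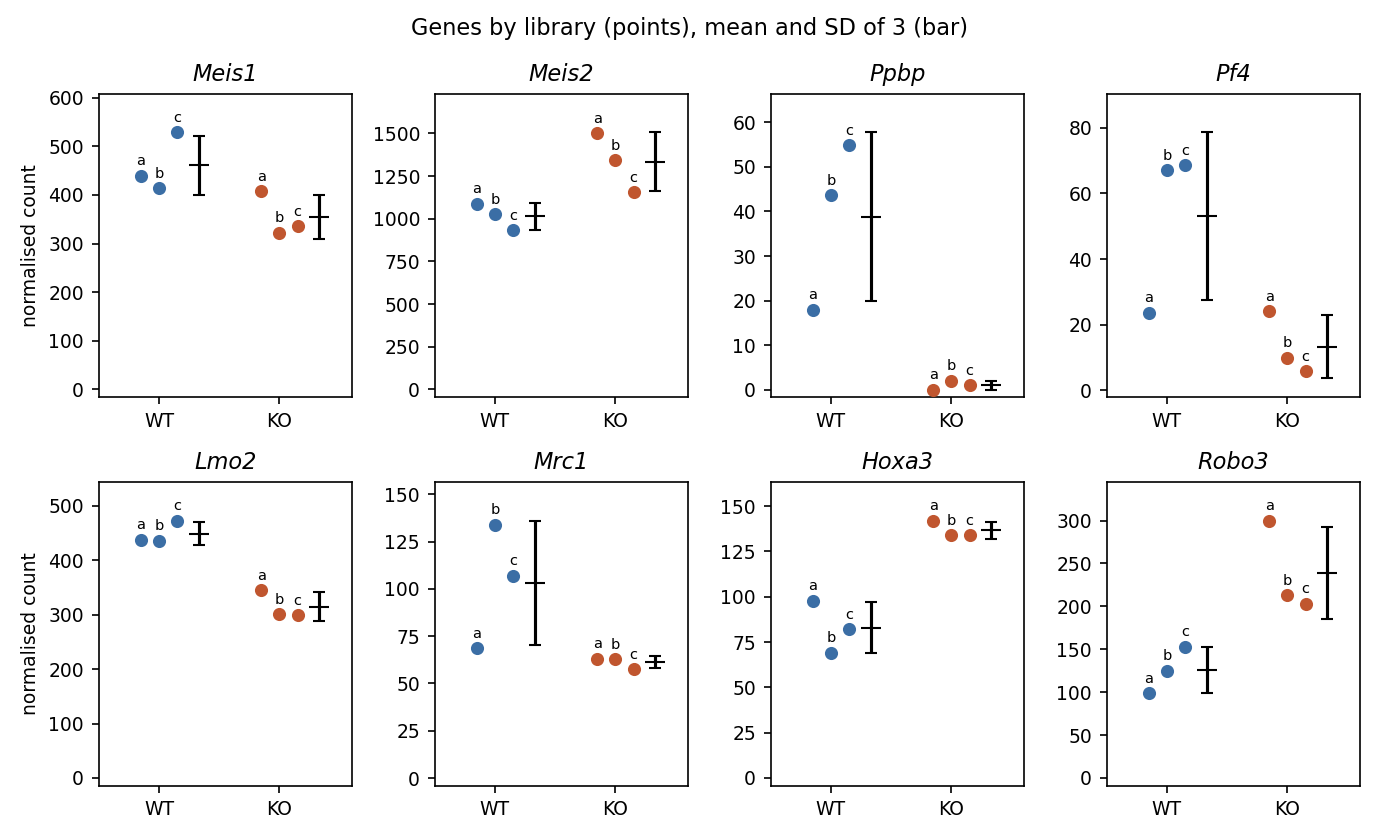
Normalised count (vertical axis, linear, from about 0) of 8 genes in WT (blue) and KO (orange) libraries, with points lettered by library and a bar for the mean and SD of 3. Ppbp lies between 0 and 2 in KO against 18 to 54.9 in WT, while Pf4 of KO a is level with WT a.

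Genes of platelet signalling and secretion were the platelet subgroup with the most separated members. Of 16 tested, 4 read lower in every KO library than in any WT library, where 2.67% of all genes did so, and 3 of the 16 were above 0, with a median of -0.26. Rgs18, a brake on platelet G protein signalling, read 16.9, 15.3 and 16.6 in WT and 5.74, 0 and 3.9 in KO. Rab27b, which docks dense granules, read 32.6, 28.5 and 41.4 in WT and 24.1, 19 and 11.7 in KO. Both were low in all 3 KO libraries. Fermt3, an activator of integrins, read 49.5, 58 and 77.5 in WT and 39, 37.9 and 40 in KO. The fourth was Bin2, a membrane-shaping gene, at 15.7, 10.2 and 14.3 in WT and 9.18, 0 and 8.77 in KO. It was named after its values were seen. Plek, a substrate of protein kinase C in platelets, read 68.6, 101 and 126 in WT and 68.9, 27 and 62.4 in KO, so KO a overlapped WT a. The subgroup's median was -0.58 without KO a and -0.16 in libraries a and c alone.

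Surface receptors of platelets split by library. Itga2b, the integrin chain that marks the lineage, read 53.9, 65.1 and 64 in WT and 82.6, 8.99 and 40 in KO. Gp1ba, part of the receptor for Vwf, read 28.1, 23.4 and 33.9 in WT and 31, 3 and 29.2 in KO. In both, KO b lay far below all WT libraries and KO a did not. Itgb3, the partner chain of Itga2b, read 82, 43.7 and 74.5 in WT and 67.7, 26 and 38 in KO. Gp1bb, also part of the Vwf receptor, Pear1 and Cd9 went the other way, with log2 ratios of 0.14, 0.15 and 0.16. In KO b they lay at 0.48, 0.45 and -0.01 against the WT mean. Gp1bb and Cd9 were named after their values were seen. The 8 receptor genes with a mean of at least 10 had a median of -0.24 (5 below 0), -0.64 without KO a and 0.05 in libraries a and c alone. The other 8 receptor genes were below that level. Summed, these 8 read 36, 54.9 and 68.5 in WT and 26.4, 21 and 20.5 in KO. Gp9, another part of the Vwf receptor, was among them at 0, 10.2 and 12.8 in WT and 2.3, 2 and 0.975 in KO, chosen after its values were seen. In bulk embryos, fewer cells of a type and less RNA per cell cannot be told apart.

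Transcription factors of the lineage did not follow as a list, but some also act in red cells, so whole-embryo counts cannot be assigned to megakaryocytes. Gata1, the erythroid and megakaryocyte factor, read 53.9 to 99.3 in WT and 55.9 to 101 in KO, and was also named after its values were seen. Nfe2, needed for platelet release, read 89.9, 63.1 and 108 in WT and 184, 107 and 105 in KO. The 7 factors had 4 members above 0, a median of 0.09 (0.04 without KO a, -0.02 in libraries a and c) and 0 members separated between groups. Against the WT mean, their median was 0.17, -0.46 and 0.14 across WT a to c, and 0.32, -0.31 and 0.24 across KO a to c. That of red cell genes was 0.17, -0.28 and 0.04 across WT, and 0.61, -0.17 and 0.13 across KO. Runx1, a factor of blood stem cells and megakaryocytes, read 34.8, 48.8 and 39.9 in WT and 26.4, 39.9 and 17.5 in KO. Its groups overlapped through KO b.

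Blood progenitor regulators had a median near 0 with members in both directions, and Lmo2 stood out. That gene, a bridge protein of the early blood transcription complex (chromosome 2, 103798143 to 103822035), read 438, 436 and 473 in WT and 345, 301 and 299 in KO. It was the 1 separated member of 24, where 2.67% of all genes were lower in every KO library. Its log2 ratio of -0.51 stayed between -0.58 and -0.47 when any 1 library was left out. Erg, a stem cell and endothelial factor, read 87.7, 123 and 73 in WT and 50.5, 76.9 and 71.1 in KO, with overlap. The median of the 24 was 0.08, with 14 above 0, and it was -0.04 without KO a and 0.10 in libraries a and c. Ratios ran from -0.60 for Sfpi1 to 0.69 for Hhex, and the 3 members under a mean of 10 were all below 0.

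The median of macrophage receptors was lower in the KO libraries than in WT b and WT c, and WT a was as low, while 4 of the 11 receptors had a ratio above 0. Mrc1, the mannose receptor, read 68.6, 134 and 107 in WT and 63.1, 62.9 and 57.5 in KO. Gpr34, a lysophosphatidylserine receptor, read 11.2, 14.2 and 10.5 in WT and 6.89, 0 and 1.95 in KO. These were the 2 separated members of 11, where 2.67% of all genes were lower in every KO library. Csf1r, the receptor for the macrophage growth factor, read 112, 232 and 160 in WT and 88.4, 136 and 110 in KO, so KO b lay above WT a. Emr1, which encodes F4/80, read 18, 31.5 and 29.4 in WT and 18.4, 8.99 and 9.75 in KO. The median of the 11 receptors was -0.55, with 7 below 0, and it was -0.40 without KO a, -0.34 without WT b and -0.50 in libraries a and c alone. Against the WT mean, the receptor median was -0.44, 0.23 and 0.15 across WT a to c, and -0.50, -0.30 and -0.43 across KO a to c.

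Complement, adaptor and lysosome genes of macrophages had a median of -0.21 over 18 genes, which was 0.10 without WT b and 0.05 in libraries a and c alone. Their direction rested on WT b. Sykb, a kinase below Fc receptors, was the 1 separated member of 17 tested, where 2.67% of all genes were lower in every KO library. It read 79.8, 89.5 and 67 in WT and 36.7, 48.9 and 59.4 in KO. Pld4, a lysosomal nuclease of myeloid cells that the rule named for its gap, read 16.9, 23.4 and 21.8 in WT and 11.5, 11 and 10.7 in KO. Cyth4, an exchange factor of blood cells, read 31.5, 43.7 and 36.9 in WT and 10.3, 25 and 26.3 in KO. Both genes were separated between groups, which the rule that named them required, and neither is in the macrophage lists.

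**Figure D2:**
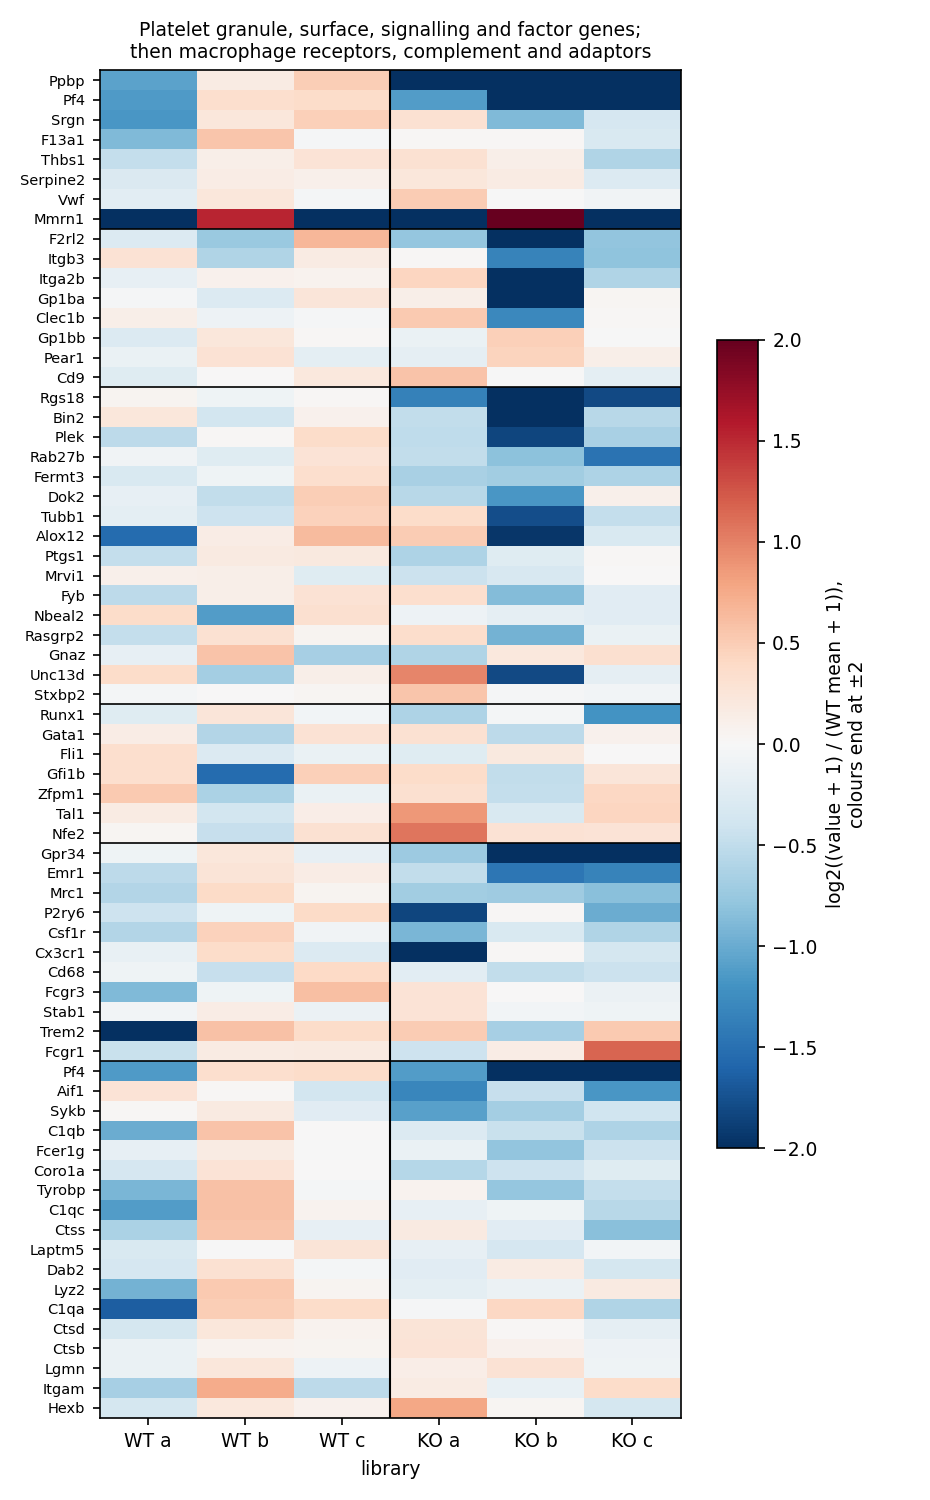
Each row is a gene with a mean of at least 10 and each column a library. Colour is the log2 ratio of its normalised count plus 1 to the WT mean plus 1, blue below and red above, and lines part the 6 subgroups. Ppbp and Rgs18 are blue in all 3 KO columns, several surface receptors mainly in KO b, and macrophage receptors also in WT a.

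Red cell genes read highest in KO a. The 17 membrane and metabolism genes had 15 members above 0, a median of 0.30, and -0.02 without KO a. Slc4a1, the anion exchanger of red cells, read 2092, 1205 and 1876 in WT and 3551, 1551 and 2100 in KO. Alas2, the first enzyme of haem synthesis in red cells, read 941, 689 and 811 in WT and 1661, 778 and 837 in KO. KO b and KO c lay within or close to the WT range in both. The 13 haem synthesis genes had a median of 0.19 and 0.00 without KO a, and 0 of the 30 red cell genes were separated between groups. Hbb-b1, an adult globin gene with a near-identical copy, read 1882 in WT b and 1018 in KO b against 64.3 to 124 in the other libraries.

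Genes induced by low oxygen were far higher in KO a than in any other library, and the regulators among them were also slightly higher in KO b and KO c. When oxygen is low, hypoxia-inducible factors (HIF) are no longer degraded and switch on genes for glucose use, vessel growth and control of the response. All 28 regulators and signals with a mean of at least 10 were above 0, with a median of 0.98. Set against the WT mean, KO a reached a median of 1.77, KO b 0.26 and KO c 0.15, while the WT libraries lay between -0.01 and 0.04. Of 26 tested, 11 read higher in every KO library than in any WT library, where 3.01% of all genes did so. Without KO a the median was 0.25, where that of all genes was 0.00. In libraries a and c alone it was 1.14.

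Bnip3, a mitochondrial receptor for autophagy (chromosome 7, 146082519 to 146101202 in mm9), whose upstream E-box is shown above, read 98.9, 138 and 132 in WT and 1032, 145 and 148 in KO. KO b and KO c exceeded WT b by only 7 and 10. Vegfa, the vessel growth factor, read 332, 256 and 336 in WT and 1706, 350 and 436 in KO. Stc2, a secreted glycoprotein, read 24.7, 18.3 and 25.6 in WT and 250, 29 and 39 in KO. Egln3, an oxygen-sensing hydroxylase that limits the response, read 50.6, 38.7 and 35.4 in WT and 215, 65.9 and 53.6 in KO. All 4 were separated, which the rule for the largest ratios required, and KO a alone made most of each difference. Without KO a their log2 ratios were 0.25 for Bnip3, 0.35 for Vegfa, 0.55 for Stc2 and 0.51 for Egln3. Ankrd37, a HIF target of uncertain role, read 161 in KO a, 31 and 33.1 in KO b and c, and 17.3 to 26.3 in WT. Flt1, the Vegfa receptor of endothelium, read 404 in KO a, 126 and 131 in KO b and c, and 94.1 to 115 in WT.

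Glycolysis genes were higher in KO a with little sign of this in the other KO libraries. All 18 were above 0, with a median of 0.73 that was 0.08 without KO a and 0.89 in libraries a and c alone. Slc2a1, the main glucose transporter, read 1006, 710 and 787 in WT and 3962, 885 and 964 in KO, so KO b and KO c lay within the WT range. Slc16a3, which exports lactate, read 745, 468 and 702 in WT and 2777, 706 and 939 in KO. Pfkl, the enzyme of the committed step, read 1271, 954 and 1077 in WT and 2919, 1208 and 1261 in KO. Pgam1 was the 1 separated member of the 18, where 3.01% of all genes were higher in every KO library. It read 64.1, 64.1 and 67.7 in WT and 114, 75.9 and 80.9 in KO.

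Several clock repressors were also highest in KO a. The circadian clock is a loop in which the activators Clock and Arntl (BMAL1) act on E-boxes and their repressor products shut them down. Gm129 (Ciart), a repressor of that pair (chromosome 3, 95682426 to 95686174 in mm9), carries the 3 CACGTG sequences shown above and read 22.5, 20.3 and 28.6 in WT and 193, 57.9 and 46.8 in KO. Its log2 ratio was 2.01, and 1.10 without KO a. Bhlhe40, a repressor that is also a HIF target, read 22.5, 24.4 and 20.3 in WT and 282, 35.9 and 38 in KO, a ratio of 2.36 and 0.70 without KO a. Both were higher in all 3 KO libraries, as the rule for the largest ratios required. Arntl read 65.2, 43.7 and 43.7 in WT and 21.8, 27 and 40 in KO, a ratio of -0.76, with KO c closest to WT. Bhlhe41, the paralogue of Bhlhe40, read 20.2 to 21.4 in WT and 82.6, 25 and 23.4 in KO. The 16 repressors and outputs had 13 above 0 and a median of 0.23 (0.09 without KO a). Their 3 separated members were all higher in KO, where 3.01% of all genes were. The 3 members below 0 were Nr1d1 (-0.22), Hlf (-0.04) and Per3 (-0.01), named after their values were seen. Against the WT mean, the median of the 16 was 0.52, 0.18 and -0.00 across KO a to c. Per1, a core repressor, read 137 to 169 in WT and 162 to 248 in KO. Of 3 activators measured at this level, Clock read 101 to 126 in WT and 112 to 148 in KO. The third, Rora, read 84.9 in KO a and 25 to 33.6 elsewhere, so the activators' median was 0.15, and -0.32 without KO a. The time of day at collection is not stated in the sources used here, and its part was not tested.

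**Figure D3:**
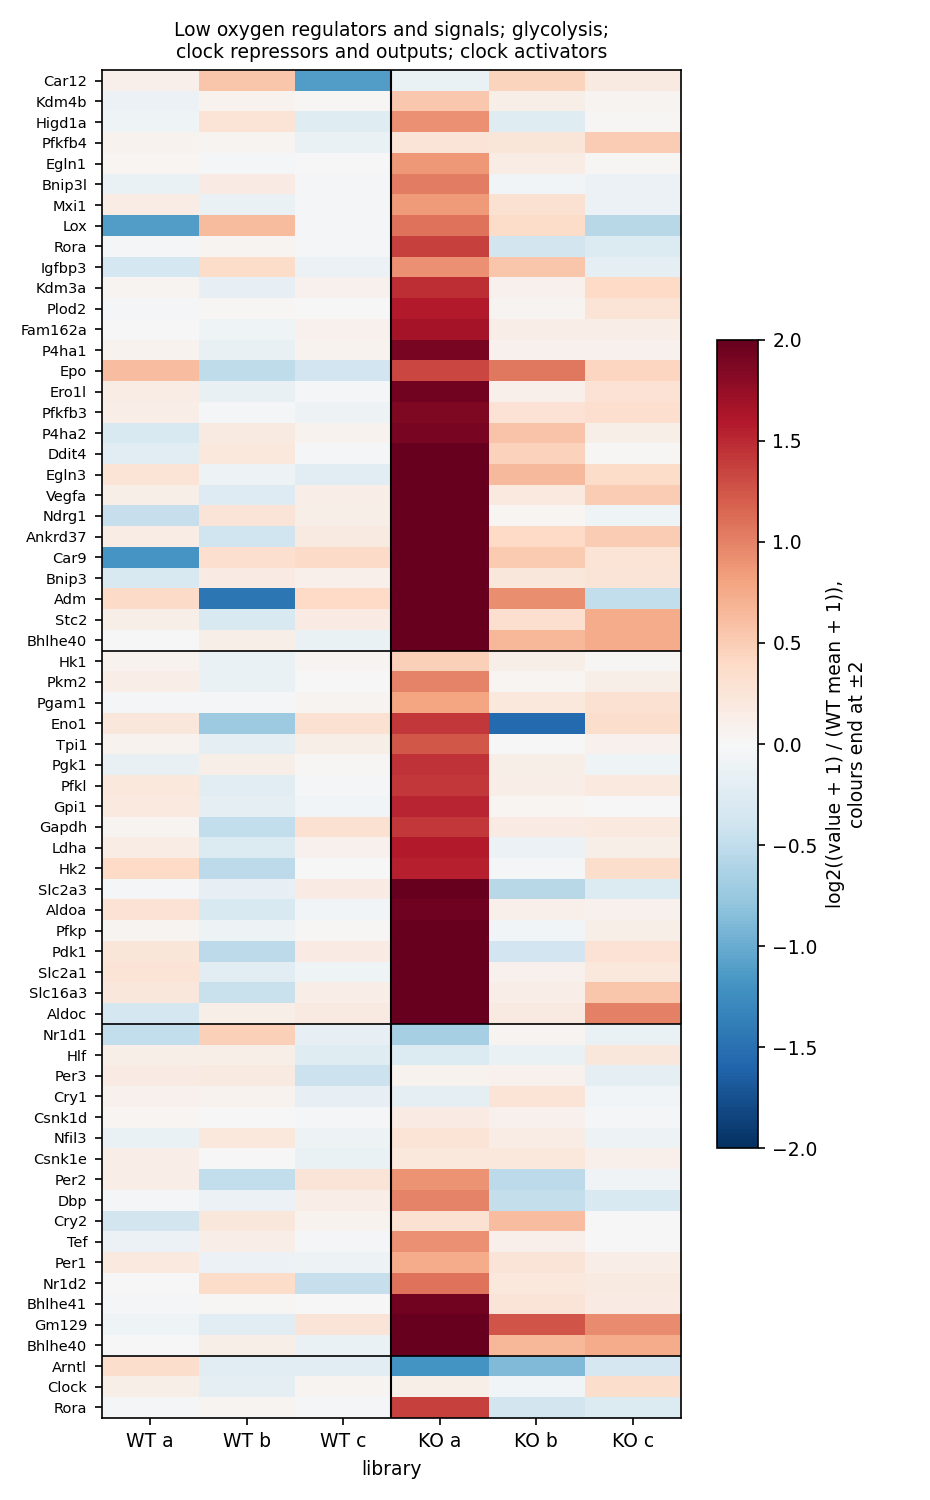
Rows are genes of the low oxygen and clock lists with a mean of at least 10, columns are libraries, and colour is the log2 ratio to the WT mean with 1 added to both. Lines part the 4 subgroups. KO a is red in nearly every low oxygen row, while only Gm129, Bhlhe40 and a few other rows stay clearly red in KO b and KO c.

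Stress lists other than the oxygen list were near 0. The medians were 0.07 for 25 genes of amino acid and endoplasmic reticulum stress, -0.07 for 19 heat shock genes and 0.08 for 21 p53 targets. Vldlr, a lipoprotein receptor, was the 1 separated gene of these lists, where 3.01% of all genes were higher in every KO library. It read 86.5 to 98.7 in WT and 332, 99.8 and 109 in KO. The inducible chaperone genes Hspa1a and Hspa1b, near-identical copies, read 367 and 313 in KO a and 0 to 6.74 in the other libraries. They were chosen after their values were seen.

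The rule for named genes also took the widest gaps between groups, and the first genes given here were higher in KO. Robo3, the receptor that lets axons cross the midline (chromosome 9, 37223254 to 37240760), read 98.9, 125 and 153 in WT and 300, 213 and 203 in KO. Its ratio was 0.92, and 0.72 without KO a. Nrxn3, a synaptic adhesion gene, read 21.4, 18.3 and 28.6 in WT and 39, 62.9 and 40.9 in KO. Hoxa3, which patterns the hindbrain and pharyngeal arches (chromosome 6, 52118509 to 52163335), read 97.8, 69.2 and 82 in WT and 142, 134 and 134 in KO. In these 3 genes every KO library lay above every WT library, as the rule required. Vit, an extracellular matrix gene, read 12.4 to 21.4 in WT and 28.7 to 31.9 in KO. Tnfaip3, a brake on NF-kB signalling, read 21.4 to 22.6 in WT and 52.8, 30 and 35.1 in KO. Pde4b, a phosphodiesterase, was named for its ratio and not its gap. It read 74.2, 80.4 and 104 in WT and 386, 154 and 118 in KO.

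Among the widest gaps lower in KO, besides Ppbp and Pld4, Wnt2, a ligand of lung and heart mesoderm, read 71.9, 65.1 and 65.5 in WT and 50.5, 41.9 and 48.7 in KO. Rabep2, an endosome tether, read 143, 164 and 124 in WT and 95.3, 97.8 and 85.8 in KO. Lin37, a subunit of the DREAM cell cycle complex, read 83.4 to 85.8 in WT and 56.9 to 65.4 in KO. All 3 genes had tight values within each group, which a rule for wide gaps favours, with ratios of -0.51, -0.62 and -0.47. Camk2n2, an inhibitor of a calcium-dependent kinase, read 18.8 to 23.4 in WT and 4.59, 14 and 14.6 in KO. The mitochondrial leucine tRNA gene mt-Tl1 was also named for its ratio and not its gap. It read 117, 170 and 160 in WT and 2.3, 104 and 106 in KO, the lowest value being in KO a.

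Of 54 axon guidance genes tested, 7 were higher in every KO library and 1 was lower, where 3.01% and 2.67% of all genes were. The median was 0.15 for the 28 receptors and for the 26 ligands, 0.10 and 0.05 without KO a, and 0.16 and 0.17 in libraries a and c. Slit1, the ligand of Robo receptors, read 61.8, 44.8 and 36.1 in WT and 64.3, 84.9 and 68.2 in KO. Sema6a, a ligand of plexins, read 277 to 284 in WT and 407, 371 and 296 in KO. Plxna3, a plexin, read 264, 296 and 330 in WT and 476, 405 and 337 in KO. KO c was the closest to WT in Sema6a and Plxna3, and KO a in Slit1. Plxnc1, another plexin, was the 1 lower gene, at 58.4, 81.4 and 73 in WT and 49.4, 43.9 and 47.8 in KO.

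Neuron genes had small positive medians. That of the 30 generic neuronal genes was 0.13, with 3 separated members, all higher in KO, where 3.01% of all genes were. Those of motor neurons (7 genes), inhibitory interneurons (12), excitatory and sensory interneurons (10) and sensory ganglia (14) were 0.13, 0.11, 0.21 and 0.18. Without KO a these 4 were 0.23, 0.16, 0.13 and 0.23, and in libraries a and c they were 0.11, -0.10, 0.16 and 0.13. The inhibitory median was also below 0 without KO b, at -0.09. KO b had the highest generic neuronal median of all libraries, at 0.45, and without it the median was -0.07. It was 0.20 without KO a and 0.02 in libraries a and c. Nhlh2, a factor of newborn neurons, read 245, 174 and 158 in WT and 270, 260 and 286 in KO. Nrcam, an adhesion gene of axons, read 146, 136 and 129 in WT and 209, 181 and 167 in KO. Both were separated between groups. Neural progenitor genes had a median of 0.14 over 31 members. Emx2, a forebrain and kidney factor, was the 1 separated member of 30 tested, where 3.01% of all genes were higher in every KO library. It read 120 to 133 in WT and 135 to 156 in KO. Sox2, which keeps progenitors, read 197 to 271 in WT and 223 to 324 in KO.

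Neural crest and glia genes had a median of 0.26 over 20 members, with 3 separated and higher in KO, where 3.01% of all genes were. It was 0.46 without WT a, 0.29 without KO a and 0.13 in libraries a and c alone. Th, the rate-limiting enzyme of catecholamine synthesis, read 19.1, 6.1 and 18.1 in WT and 24.1, 24 and 31.2 in KO. Ets1, a factor of neural crest and endothelium, was also separated, at 419 to 429 in WT and 441 to 466 in KO. Ret, the receptor for glial neurotrophic factors, read 33.7, 46.8 and 23.3 in WT and 45.9, 43.9 and 55.5 in KO, with overlap. Hindbrain and cranial nerve genes had a median of 0.14 over 16 members and 0 separated. Barhl1, a factor of hindbrain neurons, read 24.8 to 49.5 in WT and 37.9 to 65.4 in KO.

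Liver and yolk sac secreted proteins had the largest negative median among lists of more than 10 genes, and the WT libraries did not agree on it. Of 16 genes, 15 were below 0, with a median of -0.73, and 0 were separated. Alb, serum albumin (chromosome 5, 90889915 to 90905629 in mm9), read 36, 406 and 373 in WT and 51.6, 104 and 103 in KO. Apoa1, the main protein of high-density lipoprotein, read 27, 65.1 and 172 in WT and 36.7, 31.9 and 41.9 in KO. In both, WT a lay below every KO library. The list's median against the WT mean was -1.19, 0.08 and 0.52 across WT a to c, and -0.89, -1.20 and -0.32 across KO a to c. It was -0.19 without WT c and -1.10 without WT a. Transcription factors of the same tissues had a median of 0.17 over 12 genes, and Tbx3, a factor of liver bud growth, read 236 to 327 in WT and 310 to 373 in KO.

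The deposited residual variance ratio of each gene, which sets the variance between libraries of a group against that fitted at its mean, showed where a group was uneven. It exceeded 3 in 3% of the 14652 genes in WT and 3.55% in KO. Among the secreted liver proteins it did so in 10 of 16 genes in WT and 0 in KO. Low oxygen genes gave the opposite, with 37 of 46 above 3 in KO and 2 in WT. Collagens and matrix genes were above 3 in 14 of 26 genes in WT and 4 in KO. Their median was -0.02, and against the WT mean it was -0.62 in WT a and 0.41 in WT b.

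**Figure D4:**
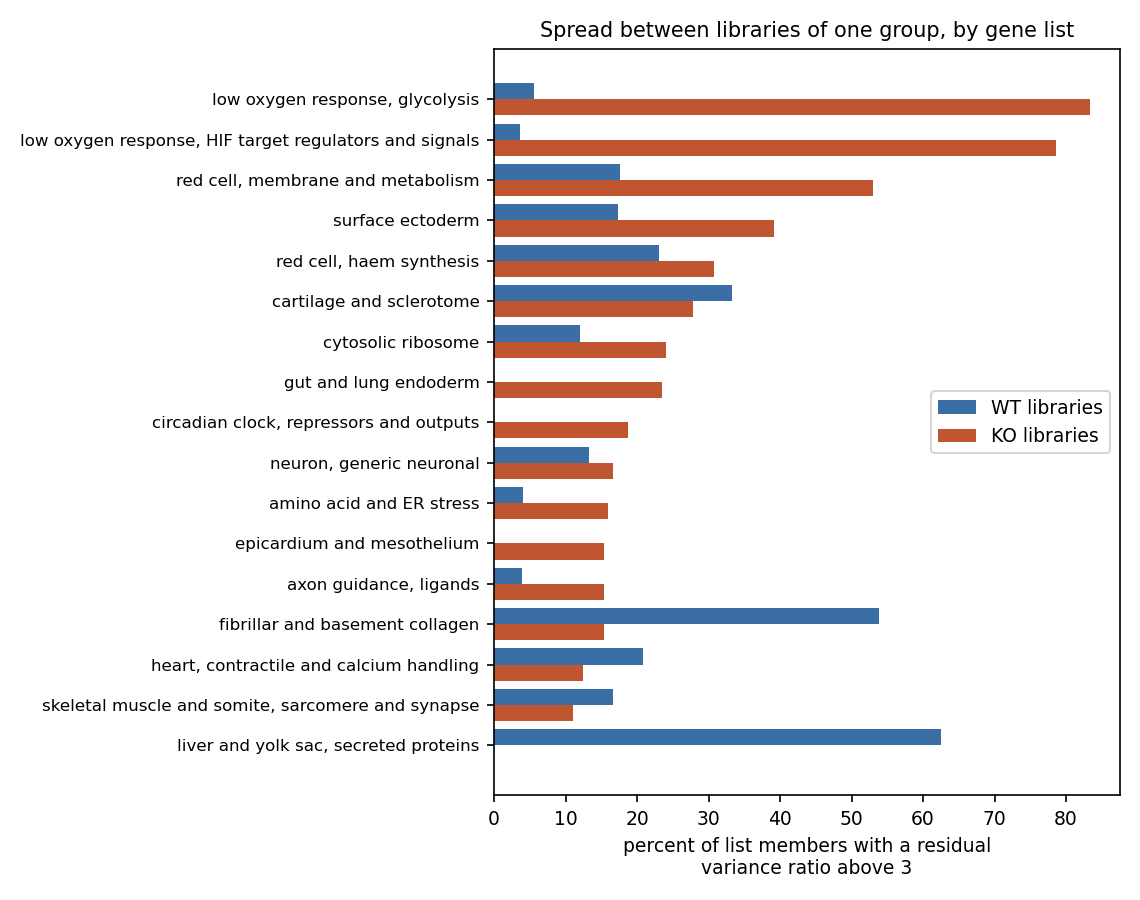
Percent of a list's members whose deposited residual variance ratio exceeds 3 in the WT libraries (blue) and KO libraries (orange), for lists of at least 10 genes in which either share reaches 15%. Low oxygen genes are high only in KO (78.6% and 83.3%), secreted liver proteins only in WT (62.5%) and collagens mostly in WT (53.8%).

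The lists for the eye differed from each other. Eye field and retina genes had a median of 0.06 over 16 members, and Pax6, the master factor of the eye, read 287, 195 and 321 in WT and 318, 302 and 345 in KO. Sfrp1, a Wnt inhibitor, was the 1 separated member of the 16, where 2.67% of all genes were lower in every KO library. It read 1081 to 1106 in WT and 989 to 1076 in KO. Crystallins were read mainly in WT b. Cryaa read 0, 66.1 and 4.52 in WT and 0, 14 and 0 in KO, and Cryba1 read 3.37, 32.6 and 3.01 in WT and 2.3, 3 and 0 in KO. Both were named after their values were seen. The lens list kept 4 genes, 2 of them tested, with a median of -1.16, and 0.05 without WT b. Eye pigment genes had a median of -0.22 over 5 members, with WT b and KO b the highest. Dct, a melanin enzyme, read 15.7, 42.7 and 22.6 in WT and 4.59, 32.9 and 9.75 in KO.

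Surface ectoderm genes had a median of 0.02 over 23 members, and -0.45 without KO a. Krt14, a basal keratin, read 23.6, 254 and 120 in WT and 50.5, 115 and 46.8 in KO. Grhl1, a factor of the skin barrier, was the 1 separated member of 22 tested, where 2.67% of all genes were lower in every KO library. It read 11.2, 21.4 and 17.3 in WT and 6.89, 11 and 9.75 in KO. Gut and lung endoderm genes had a median of 0.22 over 17 members, with 14 above 0, and it was at least 0.20 when any 1 library was left out. Nkx2-3, a factor of gut and spleen mesoderm, read 11.2, 5.09 and 6.02 in WT and 12.6, 14 and 18.5 in KO. It was the 1 separated member of the 17, where 3.01% of all genes were higher in every KO library.

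Limb and head genes, which take part in the known sites of Meis1 action, had medians close to 0. That of 21 proximal and whole-bud genes was -0.08, that of 21 distal and signalling genes -0.14 and that of 26 head mesenchyme genes -0.06. Msx1, a factor of limb and face mesenchyme, read 470, 410 and 494 in WT and 353, 382 and 388 in KO. In the proximal list Msx1 was the 1 separated member lower in KO, and Emx2, given above, was the 1 higher. Over all genes these shares were 2.67% and 3.01%. Msx1 was also the 1 separated member of the head list. Hoxd12, a distal limb factor, read 47.2, 56 and 38.4 in WT and 17.2, 41.9 and 24.4 in KO. Cyp26b1, which degrades retinoic acid, read 164 to 193 in WT and 108, 202 and 102 in KO, with KO b alone above WT. The retinoic acid list had a median of -0.10 over 19 members. In libraries a and c alone the proximal limb and head medians were -0.18 and -0.21.

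Heart and muscle lists had medians near 0, and vessel lists slightly above it. Contractile genes of the heart had a median of -0.09 over 24 members, and 19 heart factors had 0.04. Tnni3, cardiac troponin I, read 152, 148 and 303 in WT and 122, 147 and 143 in KO, so its ratio of -0.54 was -0.12 without WT c. Skeletal muscle determination genes had a median of 0.07 and sarcomere genes 0.03. Endothelial receptors, factors and arterial or venous genes had medians of 0.10, 0.10 and 0.18, and 6 of the 51 were higher in every KO library, where 3.01% of all genes were. The 3 medians were 0.13, 0.11 and 0.16 without KO a, and 0.07, 0.13 and 0.20 in libraries a and c. Cd93, an endothelial adhesion gene, read 189 to 210 in WT and 210 to 271 in KO, with KO c level with WT b. Efnb2, the arterial ephrin, read 567 to 581 in WT and 616 to 699 in KO. Dll4, the arterial Notch ligand, overlapped, at 24.1 to 34.6 in WT and 30.2 to 47.9 in KO. Mural and smooth muscle genes had a median of -0.01 over 19 members. Notch3, the mural cell receptor, read 488 to 536 in WT and 576 to 628 in KO. It was 1 of 3 separated members, all higher in KO, where 3.01% of all genes were. The others were Pdgfrb, the pericyte growth factor receptor (445 to 501 and 505 to 582), and Cspg4, the NG2 proteoglycan (25.8 to 39.1 and 41.3 to 55.9).

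Kidney and gonad ridge genes had a median of 0.22 over 21 members, with 16 above 0 and a range of 0.16 to 0.27 when 1 library was left out, and 0.16 in libraries a and c. The 2 separated members were Emx2, given above, and Gfra1, the co-receptor of Ret, at 112 to 155 in WT and 155 to 169 in KO. Both were higher in every KO library, where 3.01% of all genes were. Ret also belongs to them, as does Gdnf, its ligand, at 11.2, 6.1 and 4.52 in WT and 10.3, 11 and 14.6 in KO. Cartilage and sclerotome genes had a median of 0.05, epicardium and mesothelium genes 0.16, cholesterol synthesis 0.03, the nuclear-encoded respiratory chain -0.04 and cell cycle genes -0.08. Cytosolic ribosome genes had a median of 0.11, which was 0.51 in KO a against the WT mean and -0.10 without that library. The same median was 0.27 without KO b and 0.29 in libraries a and c alone. Rpl12, a ribosomal protein gene, read 526 in KO a and 198 to 318 elsewhere. Counts of ribosomal protein genes can be shared with their many pseudogenes.

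**Figure D5:**
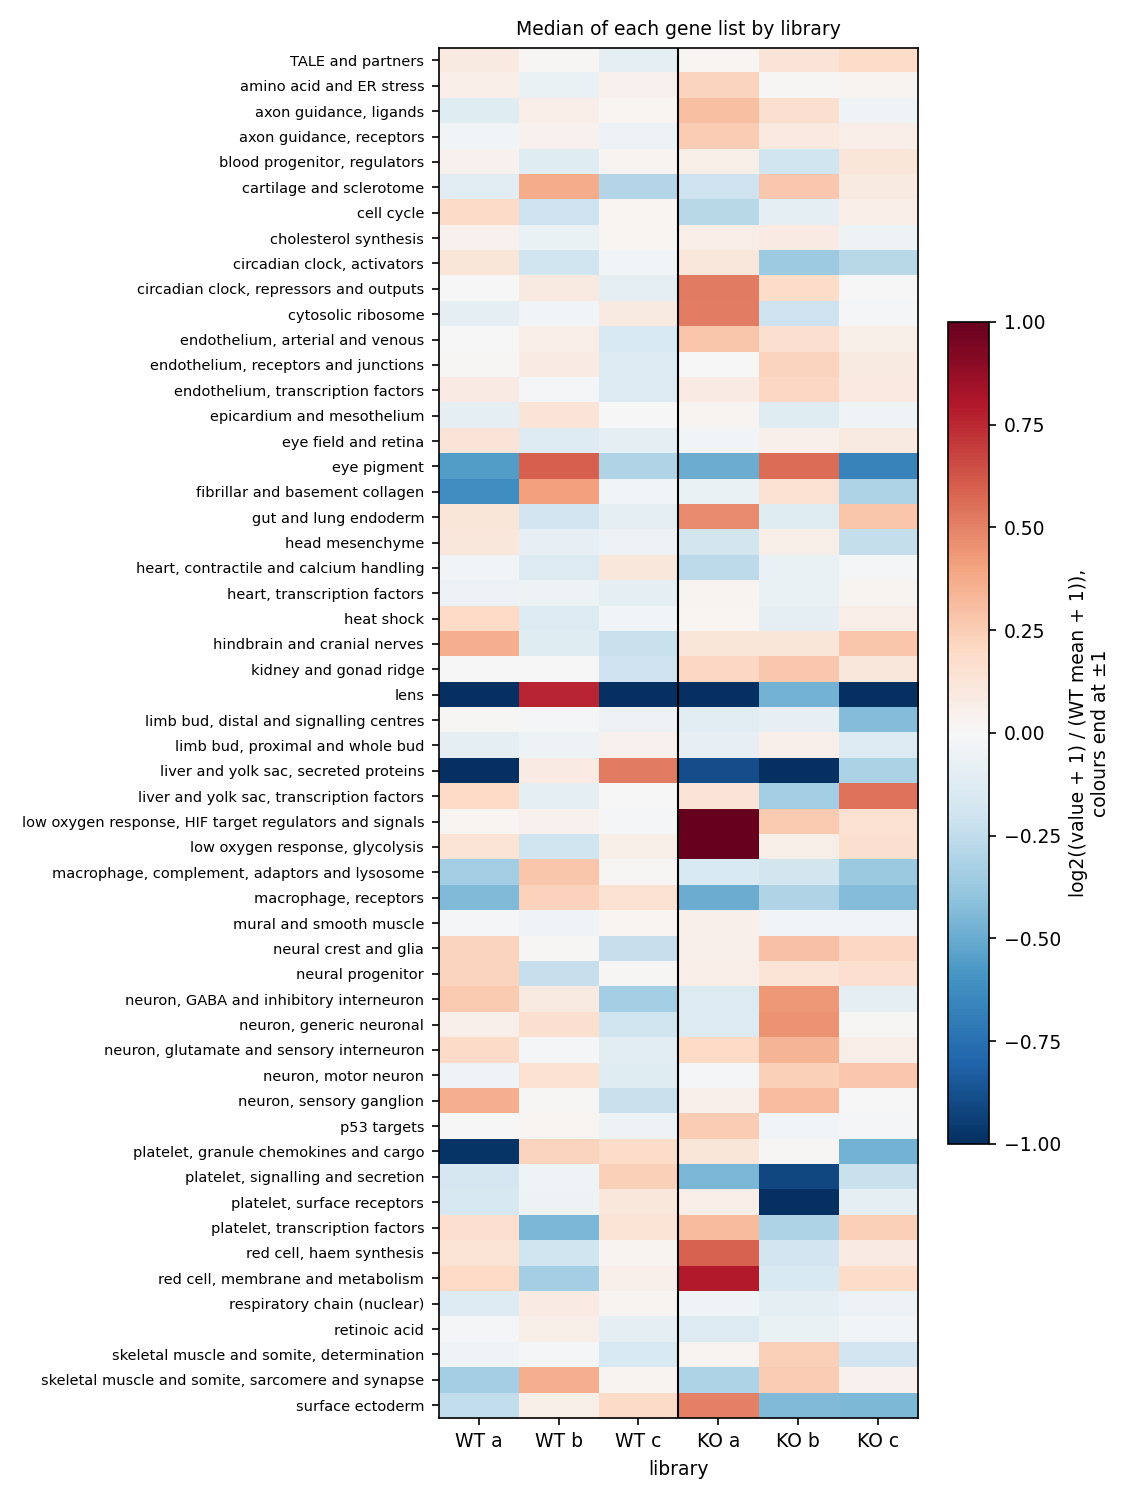
Rows are the 54 gene lists and subgroups in alphabetical order, columns the 6 libraries, and colour the median over members of the log2 ratio to the WT mean, with 1 added to both. The low oxygen rows stand out in KO a, platelet receptors and signalling in KO b, secreted liver proteins in WT a, KO a and KO b, and most tissue rows are pale throughout.

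The Prep1 pair, 1 library a group, was normalised separately and allows no test, and its genes of interest are set beside these only as values in CPM, the count scaled to the library total. Ppbp read 1.75 (exact Poisson 95% interval 0.703 to 3.6, counting error only) in the WT control and 9.67 (7.33 to 12.5) in the Prep1 hypomorph. Pf4 read 5.5 (3.45 to 8.33) and 11.5 (8.96 to 14.6). Both platelet chemokines were therefore higher in the library of the Prep1 hypomorph than in its control, with no replicate check. The control held only 7 counts of Ppbp. The 2 libraries also differed in Xist, the X-inactivation transcript, at 5.75 (3.64 to 8.63) in the control and 0.17 (0.0043 to 0.945) in the hypomorph. The part of embryo sex was not tested. Mmrn1 was read in both Prep1 libraries, at 50 counts in the control and 89 in the hypomorph.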

How the data were processed

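RNA was sequenced from whole embryos, and the submitters' processing notes name RSEM and mm9. The authors deposited, for Meis1, a signal (size-factor-normalised counts averaged over 3 libraries a group) and a residual variance ratio per gene and group. For Prep1 they deposited expected counts, whole numbers with 0 written as 0.1. The deposited fold changes and p-values of the Meis1 table were not used. Of 18941 entries, 37 repeated a gene and were dropped, leaving 18904. Counts per library were planned for but the table holds means. A deposited mean averages 3 whole counts divided by size factors, and its printed digits left 1 set of counts for 18893 genes in both groups. The other 11, among them Actb, Hbb-y and Hba-x, were left out. With deliberately wrong step sizes 0.167% (WT) and 0.333% (KO) of 600 genes had such a set.

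The test was edgeR 4.0.16 (quasi-likelihood, TMM, filterByExpr), with DESeq2 1.42.0 and limma 3.58.1 voom as alternatives, and R 4.3.3. The scripts were tested on simulated data. Log2 ratios add a pseudocount of 1. List values use genes with a mean of at least 10 in the higher group. Groups were called separated where the TMM-scaled values of the 3 KO libraries all lay above or below the WT values. Named genes were Meis1, Meis2, Ppbp and Pf4, the 10 a direction with the widest gap and the 10 with the largest ratio among separated genes with a mean of at least 20, and, per list, as many as 4 members by smallest edgeR p. Other genes (Mmrn1, Rps18, Rps2, Hbb-b1, Pgam1, Pbx3, Sfrp1, Ets1, Pdgfrb, Gfra1 and those so marked) were chosen after their values were seen. Members and lists were chosen with earlier results of these data known. Lists share members. Results for some genes are not reported here. Xist was at most 2 in all 6 libraries, and Y-linked genes were read in all.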

Additional observations from a re-analysis of the deposited data

How the results depend on the processing

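No paired analysis was possible because the labels give the libraries no shared replicate numbers and which labelled sample each recovered library came from is not known. Leaving out libraries b, and using a term for them, were chosen after seeing the data. DESeq2 called 1 gene, Ppbp (adjusted p = 0.00132), and every other setting, leave-one-out included, called 0. Genes with an unadjusted p under 0.05 in edgeR numbered 225, against 394 with no low-count filter, 358 with the term, and 123 (without WT c) to 537 (without KO b) with 1 library left out. Of the 225, 153 were higher in KO and 72 lower, whereas 222 and 219 were without WT a, 113 and 86 without KO a, and 216 and 178 with no low-count filter. Genes separated between groups numbered 820, and 1918 without KO a and 3986 in libraries a and c, where fewer libraries make separation more frequent. A ratio of residual variance above 2 or 5 was met by 6.33% or 1.24% of genes in WT and 7.29% or 1.45% in KO. Pseudocount, scaling and the use of all genes moved no list median beyond the spread between libraries.

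With 1 library left out, medians ranged from -0.58 to -0.13 for platelet signalling, -0.45 to 0.10 for macrophage complement and adaptors (0.05 in libraries a and c), -0.01 to 0.16 for endothelial receptors and 0.03 to 0.20 for endothelial factors. The ranges were 0.25 to 1.23 for low oxygen regulators, 0.08 to 1.01 for glycolysis, -0.32 to 0.24 for clock activators, -0.45 to 0.17 for surface ectoderm, 0.00 to 0.24 for eye field and -1.55 to 0.05 for lens. They were 0.07 to 0.46 for hindbrain, -0.12 to -0.02 for retinoic acid, 0.09 to 0.39 for excitatory interneurons, 0.11 to 0.46 for neural crest and -0.02 to 0.15 for TALE genes. Mural genes ranged from -0.06 to 0.06 (0.11 in libraries a and c), heart factors from -0.05 to 0.12 (0.09) and epicardium from -0.01 to 0.29 (0.30). Proximal limb and head medians were -0.18 and -0.21 in libraries a and c. Of 33 lists with a median of at least 0.1 in size, 22 kept its sign in every setting tried. The causes were not tested.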

Other observations

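Several genes read almost only in WT b and KO b, or almost only outside them, and belong to no comparison of genotype. Gm10260, listed with the same counts as Gm17290, read 1238 and 885 in WT b and KO b and was almost unread elsewhere. Gm11942 read 597 and 512 there against at most 3.44. Kpna2, a nuclear import gene, read 5.09 and 15 there against 139 to 171, and Rpl29, a ribosomal protein gene, read 23.4 and 18 against 284 to 485. Ctse, an aspartic protease gene, read 66.1 and 103 there and at most 6.89 elsewhere. AY036118 read 2076 in KO a and 92.2 to 214 elsewhere. All genes of this paragraph were chosen after their values were seen.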
